A study of Pyrus pyrifolia with 2 samples.

Results

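Some genes that an annotation lists as separate units can be joined when reads are assembled into transcripts. The loci described here are those whose assembled model holds annotated transcripts of at least 2 distinct annotated genes. They were found from the deposited transcript tables by counting the distinct annotated genes (prefix Pbr) under each locus identifier. Of 45905 loci, 487 held 2 or more annotated genes, 41312 held 1 and 4106 held none. The 487 merged loci contained 1029 of the 42341 annotated genes (2.43%). The rule itself used positions and identifiers only, with no threshold on expression. Membership still depended on reads, since all 487 merged loci held an assembled transcript that overlapped 2 or more of their genes. Levels of merged loci and of other loci are therefore not compared like for like.

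The RNA came from tissue at wounds in pears of Pyrus pyrifolia Nakai, the sand pear, cultivar "Shuijing". Control wounds were given 30 μL of sterilized water and treated wounds 30 μL of a Wickerhamomyces anomalus suspension, a yeast studied for the biological control of fruit decay. Per the labels, both groups were kept at 28 °C and 95% relative humidity, and the treatment lasted 3 days. Each group has 1 library, so no difference below has a replicate check, no p-value was computed, and the number of fruits behind a library is not stated in the labels. Depth was estimated at 19367039 read pairs for the water library and 16753518 for the yeast library. The merged loci were assigned 1741768 and 1524418 pairs (9.56% and 9.68% of all assigned pairs). Of these, a locus on chromosome 1 alone held 743860 and 682104, and a locus on scaffold1155.0 held 273264 and 212306. The files pair no identifier with a gene name or product, so tissue markers could not be checked, and what the genes encode is not stated.

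Transcription normally ends after a cleavage and polyadenylation signal downstream of a gene. When it continues into the next gene on the same strand, the product is a read-through transcript that can be spliced across both genes. A transcript that joins annotated genes is also recovered where an annotation has split a gene into separate models. Reads placed across similar neighbouring copies of a duplicated gene can give such a model as well. Plant genomes are rich in tandem duplicates, and the pear genome carries the traces of an ancient whole-genome duplication. In the sections below, an assembled transcript (prefix MSTRG) is called spanning when its genomic span overlaps 2 or more annotated genes of its locus by 1 base or more. Spans are from first to last base and include introns.

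Most merged loci were pairs of neighbours. There were 442 loci with 2 annotated genes, 36 with 3, 8 with 4 and 1 with 5. All transcripts of a locus lay on the same strand in all 487 loci, 248 on the plus and 239 on the minus strand, and in none of them did the annotated genes overlap each other in span. The distance between the genes of a 2-gene locus had a median of 3275 bases, with quartiles of 1022 and 9435 bases, and ranged from 1 to 468911 bases. The whole loci covered 774 to 504188 bases, with a median of 10500. The identifiers of the merged genes were consecutive numbers in 347 loci. In 92 loci, other annotated genes of the same strand lay in the gap without belonging to the locus, 271 genes in all and up to 22 at a locus. Genes of the opposite strand lay in the gap of 89 loci, and 358 loci had no annotated gene in the gap.

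Merged loci were present on each of the 17 chromosomes. The share of annotated genes that belonged to a merged locus ranged from 1.62% on chromosome 5, with 42 of 2597 genes, to 3.26% on chromosome 2, with 70 of 2146. On unplaced scaffolds it was 1.86%, with 135 of 7247. Chromosome 15 held the most merged loci, 48.

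Every merged locus held a spanning transcript. The 487 loci contained 971 assembled transcripts, of which 738 were spanning. A sole spanning transcript was present in 344 loci, and 265 loci had no other assembled transcript beside it. In 480 loci at least 1 transcript overlapped every annotated gene of the locus. Among the 45 loci with 3 or more genes this held for 38, and in the other 7 each transcript joined some of the genes but not all. Under stricter definitions, 450 loci had a transcript covering at least 50% of the span of each of 2 genes, and 382 had a transcript that held 2 genes whole.

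The structure of the most abundant spanning transcript was set against the genes it overlapped. Its length had a median of 1733 bases, against a median of 2079 bases for the summed coding lengths of those genes. It was longer than the summed coding length in 227 loci and shorter in 260. Its exon number equalled the sum of the exon numbers of the genes in 98 loci, was lower in 287 and was higher in 102. Annotated transcripts are coding sequences without untranslated regions, while assembled transcripts can include them, so a spanning transcript that keeps all exons of both genes is usually longer than the sum of their coding lengths.

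Length and distance went together. In measured 2-gene loci (mean of 1 FPKM or more) whose genes were 1 to 100 bases apart (32 loci), the leading spanning transcript was 1.12 times as long as the summed coding lengths at the median, and at 101 to 1000 bases (75 loci) 1.19 times. At 1001 to 10000 bases (232 loci) it was 0.978 times as long, and at 10001 to 100000 bases (93 loci) 0.512 times. At greater distances (9 loci) the median was 0.589. The median difference in exon number was 0 in both of the closest classes and -4 at 10001 to 100000 bases. A transcript of about the length of a single gene, within 10% of the coding length of each gene it joined, was the leading spanning transcript in 57 loci. Among 2-gene loci, none of these were in the classes up to 1000 bases, 30 were at 1001 to 10000, 21 at 10001 to 100000 and 2 beyond. At 21 loci both genes and the spanning transcript had exactly the same length, and 9 of these 21 joined genes of a single exon. Whether genes of equal length are copies of each other was not examined, since no sequences were used here.

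The level of a merged locus was taken as the sum of the FPKM (fragments per kilobase, relative to the fragments sequenced in that library) of its transcripts. It had a median of 16.6 FPKM in the water library (quartiles 7.41 and 39.1) and 16.1 FPKM in the yeast library (quartiles 7.88 and 39.4). The range was 0.236 to 40579 FPKM in the water library and 0.702 to 42202 FPKM in the yeast library. The median locus rested on 535.9 read pairs in the water library and 446.5 in the yeast library. The mean of both libraries was 1 FPKM or more in 486 of the 487 loci, and these are called measured. The exception on chromosome 8 (13159544 to 13199227, minus strand) had 1.22 FPKM in the water library and 0.702 FPKM in the yeast library. Of all 45905 loci, 23038 were measured by the same minimum. Each merged locus holds an assembled transcript, which needs reads, so the 2 counts are not like for like. The mean coverage per base in the same tables equals FPKM times 5.81 in the water library and times 5.03 in the yeast library, so within a library both measures order transcripts alike.

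Under the 1-base definition, spanning transcripts took more of the signal than the annotated ones at the median. In the measured loci, spanning transcripts made up a median of 59.8% of the summed FPKM in the water library (quartiles 29.7% and 94.8%) and 56.8% in the yeast library (quartiles 30.8% and 93.0%). This counts any span that touches 2 genes, and where whole genes had to lie inside the span the medians were 40.4% and 37.4%. Annotated transcripts made up a median of 15.8% and 15.7%. The rest of each locus belonged to assembled transcripts that do not span, but 265 of the 486 measured loci had none. The medians of these shares therefore do not add up to a whole. The spanning share was at least 50% in 274 loci in the water library and 273 in the yeast library, and in 254 it was so in both. It was at least 90% in both libraries in 126 loci and at most 10% in both in 12. For comparison, in 7937 measured loci with 1 annotated gene and at least 1 assembled transcript, the assembled transcripts took a median of 98.7% of the FPKM in the water library and 98.6% in the yeast library. That is a different quantity, because there any assembled transcript counts.

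At the median, the spanning share was higher with up to 1000 bases between the genes than with more, though it did not fall from class to class throughout. In 2-gene loci with 1 to 100 bases between the genes the median share was 87.4% in the water library and 84.9% in the yeast library. At 101 to 1000 bases it was 94.4% and 94.5%, and 44 and 47 of these 75 loci had a share of at least 90%. At 1001 to 10000 bases the median was 61.2% in the water library and 61.0% in the yeast library. At 10001 to 100000 bases it was 30.9% and 32.2%, and 8 and 6 of the 93 loci reached 90%. The 9 loci beyond that distance had medians of 31.9% and 39.3%, and none reached 90%. The quartiles of neighbouring classes overlapped, as at 1001 to 10000 bases, where they were 30.9% and 96.5% in the water library. In loci with a sole assembled transcript the medians ran from 89.0% and 96.0% in the closest classes to 76.6%, 27.6% and 29.7% in the water library. In the yeast library they were 89.0%, 95.7%, 73.5%, 31.6% and 30.2%.

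**Figure D1:**
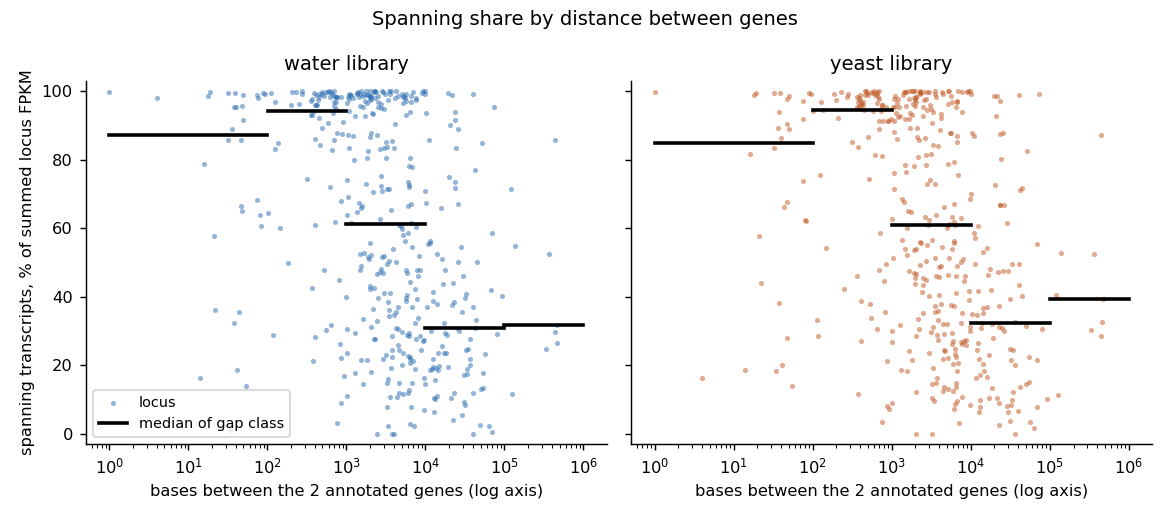
Share of the summed FPKM of a locus taken by spanning transcripts (y axis, percent) against the number of bases between the annotated genes (x axis, log scale) for measured 2-gene loci, in the water library (left) and the yeast library (right). Each point is a locus and each black line is the median of a distance class, which lies at 94.4% and 94.5% at 101 to 1000 bases and at 30.9% and 32.2% at 10001 to 100000 bases.

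The share also went with the relative length of the leading spanning transcript. Where that transcript was less than 0.6 times the summed coding length (158 loci), the median spanning share was 36.7% in the water library and 37.2% in the yeast library, and 3 loci had a share of at least 90% in both. From 0.9 to below 1.1 times (81 loci) the medians were 85.7% and 83.3%, and 29 loci reached 90% in both. From 1.1 to below 1.5 times (98 loci) they were 93.2% and 93.5%, with 50 loci at 90% or more. The 126 loci with a share of at least 90% in both libraries had a median largest gap of 1474 bases, and their genes had consecutive identifiers in 110 of them (87.3%). The 348 loci that were at neither extreme had a median gap of 5229 bases and consecutive identifiers in 229 (65.8%). Distance, transcript length and the number of assembled transcripts moved together, and their separate parts in the share were not tested. In the 92 loci that skip annotated genes of the same strand, the median share was 37.1% in the water library and 37.4% in the yeast library.

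The own transcripts of the annotated genes inside merged loci were at low FPKM in most cases, as were annotated transcripts in general. The median FPKM of a gene's own transcript was 0.356 in the water library and 0.388 in the yeast library, against 0.0870 and 0.0866 for annotated genes outside merged loci. An FPKM of at least 1 was reached by 382 of the 1029 genes in the water library and by 396 in the yeast library, and at least 10 by 151 and 146. By the mean of both libraries, 39.0% of the genes in merged loci reached 1 FPKM, against 32.2% of all annotated genes and 27.9% of the sole annotated genes of loci with an assembled transcript. In the water library 167 genes were listed at 0, and in the yeast library 172. The higher gene was about as often on either side. In the 442 loci of 2 genes, the gene at the 5′ side was the higher in 214 and the gene at the 3′ side in 215 in the water library. In the yeast library the counts were 205 and 217.

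Own-transcript levels were also compared between genes of the same locus. In 280 of the 486 measured loci in the water library, and in 271 in the yeast library, the highest gene was at least 10-fold above the lowest in own-transcript FPKM, counting loci whose lowest gene was listed at 0, and 233 loci did so in both libraries. Many of these folds rest on values near the detection limit, since 434 genes of the measured loci had fewer than 3 read pairs in the water library and 434 in the yeast library. With every gene set to at least the FPKM of 3 pairs on its length, the counts were 162 and 145 loci. No such count was made for neighbouring genes outside merged loci. The locus on chromosome 9 (19252295 to 19259414, minus strand) joined a pair of single-exon genes of 993 bases each, 5134 bases apart. The 5′ gene was at 1995 FPKM in the water library and 1935 FPKM in the yeast library, and the 3′ gene at 429.7 and 406.4 FPKM. Its 3 spanning transcripts of 2 exons summed to 20.1% and 22.0% of the locus.

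The gene table that accompanies the transcript tables gives 1 value per locus rather than per gene. In 481 merged loci the table lists the same FPKM for each annotated gene, in both libraries. In the other 6 the genes of a locus have different values in the table. At all 481, the table value equalled the sum of FPKM times length over the transcripts divided by a whole number of bases, within 0.05 bases. That number had a median of 2746 bases, 1.36 times the longest transcript at the median. The summed transcript FPKM was 1.86 times the table value at the median in each library.

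The repeated value does not separate the genes of a locus. By the gene table, 1009 of the 1029 genes had a mean FPKM of at least 1, but by their own transcript 401 had. Of the 1009, 608 (60.3%) had an own transcript below 1 FPKM, against 30% of 18875 annotated genes outside merged loci that reach 1 FPKM in the table. Among 7835 such genes that are the sole annotated gene of a locus with an assembled transcript it was 71.5%, so the share in merged loci was not raised over loci of like structure. There were 126 genes whose own transcript was listed at 0 in both libraries. The table gives 124 of these a mean of at least 1 FPKM, and 31 of them at least 10 FPKM. A transcript listed at 0 may still be transcribed, since its reads can be given to a longer model that contains it.

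**Figure D2:**
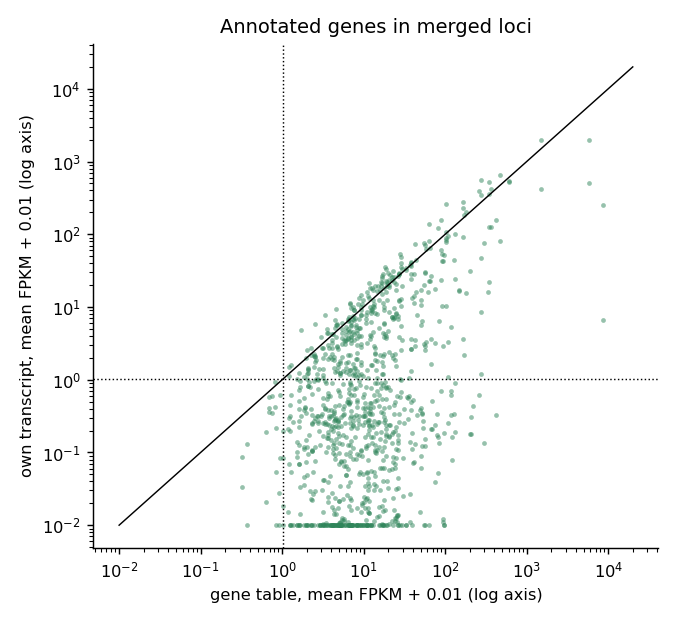
Mean FPKM over both libraries of the own transcript of each of the 1029 annotated genes in merged loci (y axis) against the mean FPKM in the gene table (x axis), both with 0.01 added and on log scales. The solid line marks equality and the dotted lines mark 1 FPKM; 608 genes lie right of the vertical and below the horizontal dotted line, and 126 lie at the bottom edge.

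The loci with the largest spanning share show the extreme form of this. On chromosome 3 (4045652 to 4052740, minus strand) a spanning transcript of 7 exons and 754 bases was at 11.0 FPKM in the water library and 10.7 FPKM in the yeast library, with a coverage of 63.8 and 53.6. Its span held the 6-exon gene and ended just inside the 4-exon gene on the 5′ side, and both genes were listed at 0 in both libraries. On chromosome 15 (26837299 to 26859331, minus strand), genes of 8 and 16 exons lay 9901 bases apart and were listed at 0 in both libraries. The 3 spanning transcripts there had 23 exons each and summed to 8.01 FPKM in the water library and 9.09 FPKM in the yeast library. On chromosome 9 (1429978 to 1436371, plus strand), 2 spanning transcripts of 11 exons summed to 5.39 and 6.0 FPKM while both genes, each of 408 coding bases, were listed at 0. On the same chromosome (7998604 to 8009738, minus strand), a spanning transcript of 4650 bases was at 4.84 and 5.44 FPKM, and genes of 273 and 309 coding bases were listed at 0. The spanning share of read pairs was 100% at these 4 loci, and the lowest exact 95% lower bound was 97.3%, at the first locus in the yeast library. These intervals cover counting error only, not the division of reads among overlapping models. Under both stricter definitions of spanning given above, the first locus had no spanning transcript, while the others kept a spanning share of 100% in both libraries.

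The most abundant merged loci had almost equal levels in both libraries. A locus of 2 annotated genes and 6 assembled transcripts on chromosome 1 (9060803 to 9309759, minus strand) reached 40579 FPKM in the water library and 42202 FPKM in the yeast library, resting on 743860 and 682104 read pairs. Neither gene accounts for that level, as their own transcripts were at 239.0 and 268.4 FPKM and at 6.17 and 7.13 FPKM. An assembled transcript of 3 exons that overlaps no annotated gene of the locus was at 22903 FPKM in the water library and 22596 FPKM in the yeast library. The 3 spanning transcripts made up 24.6% and 26.0%. On scaffold1155.0 (80015 to 83621, plus strand), genes of 2 and 5 exons lay 81 bases apart. A spanning transcript of 7 exons was at 4556 FPKM in the water library and 4011 FPKM in the yeast library, the 5′ gene at 542.2 and 485.7 FPKM, and the 3′ gene at 2023 and 1922 FPKM. On chromosome 4 (12650294 to 12780049, minus strand), genes of 2 exons and 1344 coding bases lay 125665 bases apart and were at 506.5 and 532.2 FPKM for the 5′ gene and 548.2 and 544.7 FPKM for the 3′ gene. The spanning transcript, of 3 exons and also 1344 bases, was at 139.8 FPKM in the water library and 137.6 FPKM in the yeast library, and 5 further genes of the same strand lay in between.

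**Figure D3:**
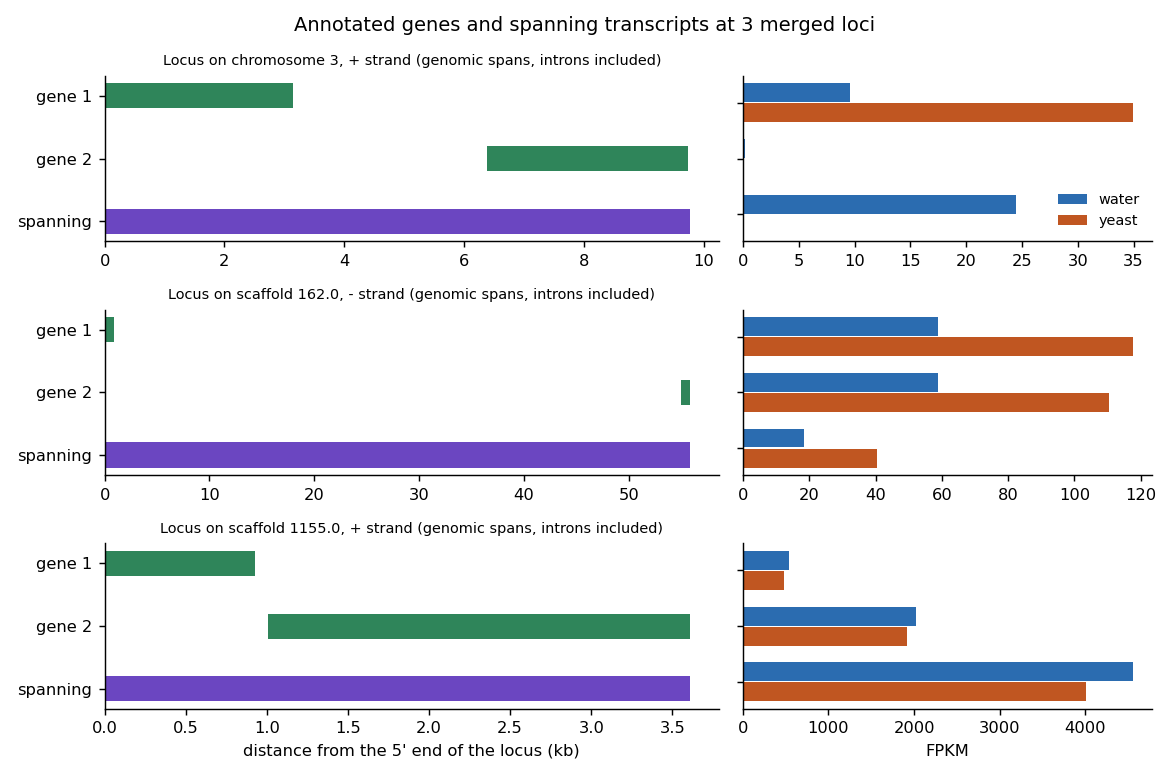
Genomic spans, introns included, of annotated genes (green) and spanning transcripts (violet) against the distance from the 5′ end of the locus in kb (left), with the FPKM of each in the water and the yeast library (right), at 3 merged loci. The share of the spanning transcript moved from 71.4% to 0.0659% on chromosome 3, all 3 transcripts were higher in the yeast library on scaffold162.0, and the spanning transcript was the highest in both libraries on scaffold1155.0.

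The loci that joined the most genes were long chains on the same strand. The locus with 5 genes, on chromosome 2 (14077011 to 14128721, minus strand), had 4 spanning transcripts, each joining up to 4 genes, and summed to 110.7 FPKM in the water library and 120.5 FPKM in the yeast library. From the 5′ to the 3′ side its genes were at 1.14, 15.6, 0.0618, 23.0 and 24.0 FPKM in the water library and at 1.26, 14.7, 0.127, 26.4 and 18.5 FPKM in the yeast library. The gene in the middle and the gene at the 5′ end were the lowest in both libraries, and 4 of the 5 genes had 5 exons and coding lengths of 2376 to 2460 bases. A locus of 4 genes on chromosome 3 (20004657 to 20030538, minus strand) summed to 226.6 and 223.1 FPKM, and a transcript of 12 exons joined all 4 genes at 21.0 FPKM in the water library and 17.3 FPKM in the yeast library. There the outer genes, of 6 and 12 exons, were at 0.0992 and 0.125 FPKM and listed at 0 in both libraries, while the inner genes, of 4 and 6 exons, were at 27.6 and 31.9 FPKM and at 33.0 and 27.0 FPKM.

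The other loci of 4 genes named by rank ranged more widely in their library ratios. On chromosome 6 (818459 to 864180, minus strand) the sum was 112.4 FPKM in the water library and 170.5 FPKM in the yeast library, and the ratio of read pairs scaled to library depth was 1.46 (95% counting interval 1.38 to 1.54). On chromosome 11 (22486328 to 22585557, minus strand) it was 18.9 and 11.6 FPKM, 1.51-fold lower in the yeast library by read pairs (1.27 to 1.80). On chromosome 15 (40776840 to 40873346, plus strand) the sum was 49.6 and 46.6 FPKM. A transcript joining all 4 genes there was listed at 0 in the water library and at 6.83 FPKM in the yeast library, and a transcript joining 2 of them was at 6.15 FPKM and listed at 0. The locus with the most transcripts, on chromosome 12 (21099815 to 21268028, minus strand), joined 4 genes with 31 assembled transcripts, 18 of them spanning, at 64.6 FPKM in the water library and 69.4 FPKM in the yeast library.

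Between the libraries, the merged loci differed little in total level. The ratio was computed as log2((FPKM yeast + 1)/(FPKM water + 1)), and a value of at least 1 or at most -1 is called 2-fold. Of the 486 measured loci, 3 were higher in the yeast library and 2 lower, 1.03% together. Of all 23038 measured loci, 0.447% were higher and 0.447% lower, 0.894% together, so the merged loci were near the background. In bulk tissue, fewer cells of a type and less RNA per cell cannot be told apart. The median log2 ratio was 0.02, against 0.01 for all measured loci. A log2 ratio within 0.5 of 0 was found for 93.2% of the merged loci and 93.3% of all loci. None of the 55 merged loci with a mean of 100 FPKM or more was past 2-fold, 1 of 156 was at 20 to 100 FPKM, 3 of 199 at 5 to 20 and 1 of 76 at 1 to 5.

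**Figure D4:**
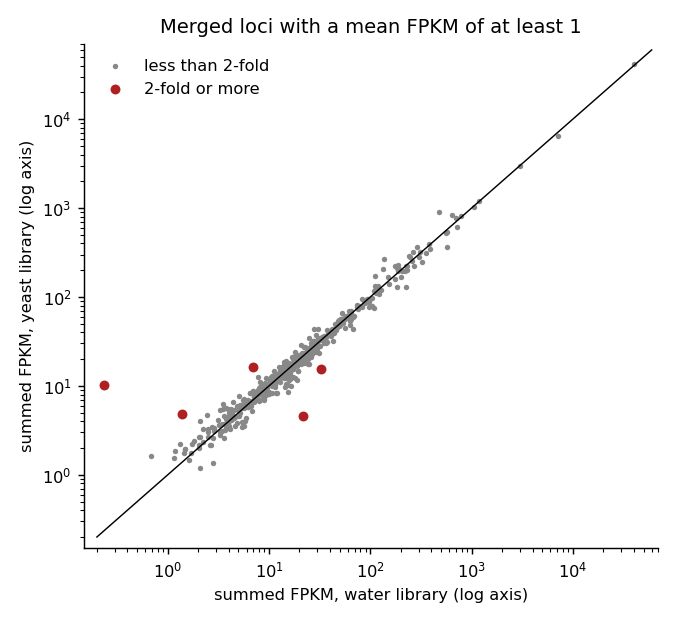
Summed FPKM of each measured merged locus in the yeast library (y axis) against the water library (x axis), both on log scales, with the line of equality. The 5 loci with a log2 ratio of FPKM + 1 past 1 or -1 are in red, and the others follow the line up to 42202 FPKM.

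The locus with the highest ratio joined Pbr001875 and Pbr001873, single-exon genes of 357 coding bases each, on chromosome 14 (17547551 to 17552244, minus strand). Pbr001875, on the 5′ side, was at 0.141 FPKM in the water library and 3.62 FPKM in the yeast library, and Pbr001873 was at 0.0951 and 1.94 FPKM. The spanning transcript, of 2 exons and also 357 bases, was listed at 0 in the water library and at 4.71 FPKM in the yeast library. All 3 transcripts were thus higher in the yeast library. The locus rested on 1.63 read pairs in the water library and 61.4 in the yeast library, a depth-scaled ratio of 43.5 (95% counting interval 9.35 to 297.7).

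The lowest ratio was found for Pbr031119 and Pbr031118, single-exon genes of 327 coding bases each, 6617 bases apart on chromosome 4 (11498570 to 11505840, plus strand). Pbr031119, on the 5′ side, was at 7.21 FPKM in the water library and 1.97 FPKM in the yeast library, and Pbr031118 was at 12.7 and 1.76 FPKM. The spanning transcript of 318 bases was at 1.72 and 0.834 FPKM. The locus held 136.5 read pairs in the water library and 24.9 in the yeast library, 4.75-fold lower in the yeast library (3.08 to 7.58).

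The other 3 loci past 2-fold were less alike in their measures. On chromosome 13 (4860217 to 4874218, plus strand, named after its value was seen), genes of 9 and 10 exons and a spanning transcript of 861 bases summed to 1.40 FPKM in the water library and 4.85 FPKM in the yeast library, all 3 being higher in the latter, with a depth-scaled pair ratio of 3.13 (2.29 to 4.31). On chromosome 12 (22105806 to 22124981, minus strand), the sum was 6.92 FPKM in the water library and 16.3 FPKM in the yeast library, while the pair ratio was 1.01 (0.922 to 1.11). On chromosome 13 (1305005 to 1315376, plus strand), the sum was 32.7 and 15.4 FPKM and the locus was 1.22-fold lower by read pairs (1.09 to 1.37). At the chromosome 12 locus an annotated transcript of 243 bases was at 0.126 and 9.32 FPKM, and at the second chromosome 13 locus one of 465 bases was at 18.2 and 0.112 FPKM. In the gene table neither of these loci was past 2-fold. Of the 5 loci, 2 were past 2-fold in the gene table and 3 by the plain ratio of read pairs.

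Further loci at the ends of the ranking were within 2-fold. On scaffold162.0 (280489 to 336293, minus strand), genes of 2 exons and 705 coding bases lay 54086 bases apart. They were at 58.8 FPKM in the water library and 117.6 FPKM in the yeast library for the 5′ gene, and at 58.9 and 110.3 FPKM for the 3′ gene. The spanning transcript of 705 bases was at 18.4 and 40.4 FPKM, and the pair ratio was 1.97 (1.86 to 2.09). On chromosome 16 (4530730 to 4558324, minus strand), genes of 480 coding bases were at 240.8 and 474.7 FPKM and at 96.7 and 155.9 FPKM, with a spanning transcript of 480 bases at 144.5 and 270.2 FPKM and a pair ratio of 1.87 (1.80 to 1.94). Here all transcripts of a locus had higher values in the yeast library. In the lower direction, single-exon genes of 624 and 633 bases on chromosome 3 (402813 to 407312, minus strand) were at 29.8 and 16.9 FPKM and at 83.6 and 39.3 FPKM, and the locus was 1.74-fold lower by read pairs (1.63 to 1.86). On chromosome 13 (2199221 to 2205130, plus strand), genes of 327 bases each were at 4.82 and 3.30 FPKM and at 1.61 and 0.909 FPKM, 1.78-fold lower by read pairs (1.25 to 2.59).

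Single transcripts moved more than the loci that hold them. Of the 401 annotated genes in merged loci whose own transcript averaged 1 FPKM or more, 14 were past 2-fold higher in the yeast library and 18 past 2-fold lower, 7.98% together. Of 13622 annotated transcripts in all, 1.64% were higher and 1.56% lower, 3.2% together. Of the 2230 that are the sole annotated gene of a locus with an assembled transcript, 7.49% were higher and 7.22% lower, 14.7% together. In this second set, as in the merged loci, reads are divided between annotated and assembled models. Of these 32 genes, 4 were past 2-fold in the gene table. Of 693 spanning transcripts averaging 1 FPKM or more, 35 were higher and 35 lower, 10.1% together. Of 14514 assembled transcripts, 2.93% were higher and 2.56% lower, 5.48% together. These come from all loci, with or without annotated genes, and no set closer in structure to the spanning transcripts was compared. Of the spanning transcripts past 2-fold, 15 were listed at 0 in a library. The median log2 ratio was -0.0037 for the genes and -0.00083 for the spanning transcripts, against -0.02 for all annotated and 0.03 for all assembled transcripts.

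The share of spanning transcripts was stable at most loci. It differed between the libraries by a median of 2.98 percentage points. A move of 20 points or more was found at 45 of the 486 loci (9.26%), 22 upward and 23 downward in the yeast library, and a move of 50 points or more at 6. Among single-gene loci with an assembled transcript, the assembled share moved by 20 points or more at 5.92% of 7935. That share counts any assembled transcript and had medians of 98.7% (water) and 98.6% (yeast), so the 2 percentages are not like for like. Of the 45 loci, 39 had a depth-scaled ratio of read pairs within 1.5-fold, with a median of 1.0, and 3 were past 2-fold as a locus. Loci with a sole assembled transcript made up 23 of the 45, and spanning transcripts were listed at 0 in a library at 5.

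**Figure D5:**
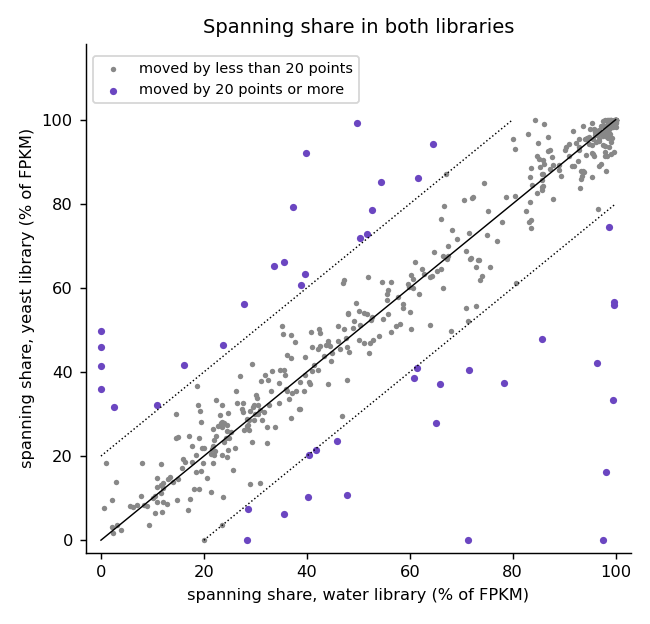
Share of the summed locus FPKM taken by spanning transcripts in the yeast library (y axis, percent) against the water library (x axis, percent) for the measured merged loci, with the line of equality and dotted lines at 20 points from it. The 45 loci past the dotted lines are in violet, 22 above and 23 below.

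At most of the loci with the largest moves the total of read pairs was nearly the same in both libraries. On chromosome 3 (20576944 to 20586711, plus strand), genes of 7 exons each lay 3246 bases apart. The spanning transcript of 8 exons was at 24.5 FPKM in the water library and 0.0231 FPKM in the yeast library, and the 5′ gene was at 9.58 and 34.9 FPKM, while the 3′ gene stayed below 1 FPKM in both. The spanning share was 71.4% and 0.0659%, or 71.8% (exact 95% interval 68.8% to 74.7%) and 0.0676% (0.00318% to 0.697%) of the read pairs, and the pair ratio of the locus was 1.0 (0.912 to 1.1). On scaffold1045.0 (77137 to 93569, minus strand), 2 spanning transcripts took 49.8% in the water library and 99.3% in the yeast library, or 73.7% and 99.8% of the read pairs. The 3′ gene was at 8.10 and 0.0835 FPKM, the 5′ gene was at 0.943 FPKM in the water library and listed at 0 in the yeast library, and the pair ratio was 1.01 (0.957 to 1.07). On scaffold757.0 (29034 to 80226, plus strand), a spanning transcript of 9 exons was listed at 0 in the water library and at 11.0 FPKM in the yeast library. Under both stricter definitions of spanning, this locus had no spanning transcript. The own transcript of the 12-exon gene on the 5′ side was at 8.50 FPKM in the water library and 0.00360 FPKM in the yeast library. An assembled transcript of 5 exons overlapping that gene alone was at 7.94 and 7.75 FPKM. The 8-exon gene on the 3′ side was at 3.54 and 3.41 FPKM, and the pair ratio was 0.989 (0.852 to 1.15).

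On chromosome 3 and scaffold757.0 the spanning transcript and the 5′ gene changed places in their order between the libraries. At the chromosome 12 locus named above, a gene of 48 exons and 6489 coding bases was listed at 0 in the water library and at 4.34 FPKM in the yeast library. The 2 spanning transcripts of 48 exons there were at 3.56 and 0.466 FPKM and at 3.23 and 2.17 FPKM. The spanning share was 98.2% and 16.2% of the FPKM but 99.9% and 38.2% of the read pairs. On chromosome 10 (11151707 to 11158614, plus strand), the 3′ gene of 2187 coding bases was at 0.0359 FPKM in the water library and 16.2 FPKM in the yeast library, while the spanning share was 99.7% and 55.8% and the pair ratio 1.25 (1.15 to 1.34). On scaffold492.0.1 (257003 to 261893, minus strand), the single-exon 5′ gene of 264 bases was at 0.252 and 89.5 FPKM. The spanning transcript of 8 exons was at 132.6 and 117.3 FPKM, and the pair ratio was 0.964 (0.928 to 1.0). Because that gene is short, the spanning share there was 99.6% and 56.6% of the FPKM but 99.8% and 91.7% of the read pairs. How reads were divided among overlapping models in each library was not examined, so a shift in shares and a change in transcription cannot be told apart here.

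The library ratios of the genes within a locus were set against each other. In 111 loci 2 or more genes averaged 1 FPKM or more, and the largest difference in log2 ratio between genes of a locus had a median of 0.29. It was at least 1 in 17 loci (15.3%), a count that became 45 without the minimum on FPKM and 5 with a minimum of 5 FPKM. The same count for neighbouring genes outside merged loci was not made, so whether 15.3% is particular to merged loci was not tested. The largest difference was on chromosome 13 (1305005 to 1315376, plus strand). There a single-exon gene was at 18.2 FPKM in the water library and 0.112 FPKM in the yeast library. Its 10-exon neighbour, 44 bases downstream, was at 2.86 and 5.10 FPKM. On chromosome 8 (16193712 to 16294125, plus strand), genes of 7 exons each were at 3.77 and 3.38 FPKM on the 5′ side and at 40.9 and 7.99 FPKM on the 3′ side. A spanning transcript of 8 exons was at 32.1 FPKM in the water library and 63.8 FPKM in the yeast library. On chromosome 9 (1538129 to 2042316, minus strand) lay the genes farthest apart, with 468911 bases between them. Their own transcripts were at 3.14 and 1.95 FPKM on the 5′ side and at 5.47 and 0.249 FPKM on the 3′ side. Together they made up 3.77% and 0.982% of the locus. An assembled transcript overlapping the 3′ gene alone was at 68.2 and 68.5 FPKM. Those overlapping the 5′ gene alone were at 21.2 and 11.4 FPKM and at 57.3 and 53.8 FPKM. In each of these 3 loci at least 1 spanning transcript was higher in the yeast library. The own transcript of the gene with the larger difference was lower. Other spanning transcripts were lower in the yeast library on chromosomes 13 and 8. The spanning transcripts on chromosome 13 summed to 11.6 FPKM in the water library and 10.2 FPKM in the yeast library. On chromosome 8 the sums were 53.3 and 64.9 FPKM, and on chromosome 9 they were 72.8 and 88.0 FPKM. Under both stricter definitions of spanning, the chromosome 9 locus had no spanning transcript. Where whole genes had to lie inside the span, the chromosome 13 locus had none either.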

How the data were processed

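Each library has a transcript table with FPKM and mean coverage per base, per the file headers, and a gene table of FPKM covers both; the authors deposited these values, and, per the submitters' processing notes, the tools included HISAT2 and HTSeq 0.6.1, whose roles are not stated. The coverage signal is as deposited, not scaled to library size. For the genome build, the program behind the tables and strandedness, nothing is recorded in the labels or headers. Positions are printed as deposited. Members and lists were chosen with earlier results of these data known.

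The quotient of coverage and FPKM was near constant over the transcripts above 1 FPKM of a library, which gave the depth. Coverage times length was most often 300 bases at transcripts with few covered bases and was a whole multiple of 150, within 0.5 bases, at 14.8% (water) and 15.4% (yeast) of them, so dividing covered bases by 300 estimated the read pairs, which can be fractional. At this depth, 3 pairs on 1 kilobase equal 0.155 FPKM (water) and 0.179 FPKM (yeast). Exact (Clopper-Pearson) 95% intervals cover counting error only, since without molecular identifiers read pairs need not be separate molecules. Ratios used a pseudocount of 1 FPKM, which understates the change of weak loci. Loci named singly, at a mean of at least 5 FPKM, were those with the most genes (6) and, 4 each, the highest mean, highest and lowest ratio, largest rise and fall of the spanning share, largest difference between genes and largest spanning share. Python 3.11.15, pandas 2.3.3 and scipy 1.17.1 were used. The overlap counting was checked on cases with known answers, and the 2-fold rule on simulated data.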

Additional observations from a re-analysis of the deposited data

How the results depend on the processing

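No library could be left out. No paired analysis was possible because there is a sole library per treatment. Of 72 recomputed values, 7 could not differ, since coverage is proportional to FPKM within a library and no annotated genes overlapped within a locus. Of the others, 42 stayed within 1.5-fold of a count or within counting error of a share and 23 did not. A pseudocount of 5 left 1 higher and 1 lower locus, and by the gene table there was 1 higher. For annotated genes, a pseudocount of 0.1 gave 25 higher, a pseudocount of 5 gave 6 higher and 10 lower, and a minimum mean of 5 FPKM gave 5 and 7. Loci whose genes differed by a log2 ratio of 1 numbered 6 at a pseudocount of 5, 45 without a filter and 5 at that minimum. The median spanning share was 50.7% (water) and 50.7% (yeast) when 50% of each gene had to be covered, 40.4% and 37.4% when whole genes had to lie inside, 70.1% and 67.1% by covered bases, and 51.9% and 52.9% at that minimum. Without a filter the yeast median was 56.6%. Settings added after the data were seen were loci with a sole assembled transcript, with medians of 83.1% and 78.5% and 23 moves of 20 points, and 20 read pairs per library, with 2 loci higher and 2 lower. The cause of these shifts was not tested. Short transcripts and few pairs limit the weak loci.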
